A study of Mus musculus with 6 samples.

Results

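The ATF4 stress and serine synthesis genes are 9 genes of the integrated stress response and of the serine and one-carbon pathway: Atf4, Ddit3, Trib3, Chac1, Asns, Phgdh, Psat1, Shmt2 and Mthfd2. They were taken by gene symbol from a deposited expression table, which lists all 9 among its 11417 genes. The table covers 3 established mouse mammary cell lines, BC44, HC11 and C57MG, with 2 replicate poly(A) RNA libraries of each, none of them treated and all grown on plastic. The medium of BC44 was RPMI containing 10% serum plus insulin at 5 µg/ml. HC11 had the same mixture and also received epidermal growth factor at 10 ng/ml. For C57MG it was DMEM containing 10% serum plus insulin at 10 µg/ml. All cells were harvested 2 days after plating. The culture media differ in amino acids (RPMI contains asparagine and DMEM does not, while both contain serine and glycine), and each line had its own medium, so line and medium cannot be told apart.

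The integrated stress response begins when one of several kinases phosphorylates the translation factor eIF2α, for example when amino acids run short or when unfolded protein builds up in the endoplasmic reticulum. Bulk translation then slows, while translation of Atf4 mRNA rises, so the Atf4 transcript level is only part of the control of the ATF4 protein. ATF4 is a transcription factor of the basic leucine zipper family that activates genes of amino acid uptake and synthesis, including the route that makes serine from a glycolytic intermediate and passes its carbon to mitochondrial folate. In breast tissue the pathway is known from tumours, a subset of which carry extra copies of PHGDH.

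Levels are RPKM, reads per kilobase of gene scaled to the size of the library, as the authors computed them. The values can therefore be compared between genes per unit length. The denominators, estimated from the steps between low values, were 14300000 to 18560000 reads per library, and between 9706 and 9895 genes reached 1 RPKM. Of 9 listed epithelial marker genes, 9 were at 1 RPKM or more in both HC11 libraries, 6 in both BC44 libraries and 1 in both C57MG libraries. Their summed level was 4828 to 5040 RPKM in BC44, 2254 to 3137 in HC11 and 65.4 to 137 in C57MG. C57MG is labelled mammary epithelial, yet Epcam, Cdh1, Cldn4 and Esrp1 were listed at 0 in its replicate 2. In its replicate 1 they were at 0.949, 1.09, 0.031 and 0.439 RPKM. Krt14 was at 118.0 and 64.8 RPKM in C57MG, under all libraries of the other lines. Cldn3 was listed at 0 in both C57MG libraries but also in both BC44 libraries, where Krt18 was at 0 as well. Krt8 was higher in C57MG (0.307 and 0.503 RPKM) than in BC44 (0.038 and 0.064), and far higher in HC11 (144.4 and 148.0). For Krt5 the C57MG libraries lay far apart (replicate 1: 16.0 RPKM, replicate 2: 0.148), both under all libraries of the other lines. The 12 mesenchymal marker genes summed to 7276 to 7479 RPKM in C57MG, 300.1 to 384 in BC44 and 257 to 331 in HC11. Most of the BC44 sum was Fn1, at 232.4 and 235.2 RPKM. Each of these genes but Cdh2 was higher in BC44 replicate 2 than in replicate 1, as Vim was, at 49.4 against 15.2 RPKM. The cause of this difference between replicates was not tested. The summed marker levels move with every difference between C57MG and the other lines given here, and their part in those differences was not tested. The labels do not say whether the 2 libraries of a line came from separate cultures, so the p-values measure only the spread between these libraries, which may be technical.

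All 9 genes were expressed in all 6 libraries, and in no gene was the lowest line under 25.2% of the highest. Atf4 had the highest level in every library and Ddit3 the lowest. By their mean over the libraries, Atf4 stood at percentile 98.5 of the listed genes, Shmt2, Asns and Phgdh between 96.3 and 97.3, and Ddit3 at 40.3. The lowest estimated number of reads behind a value was 143, for Ddit3 in C57MG replicate 2, which gives a counting error of 8.35%. For the other 8 genes the largest counting error was 6.03%, for Chac1.

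**Figure D1:**
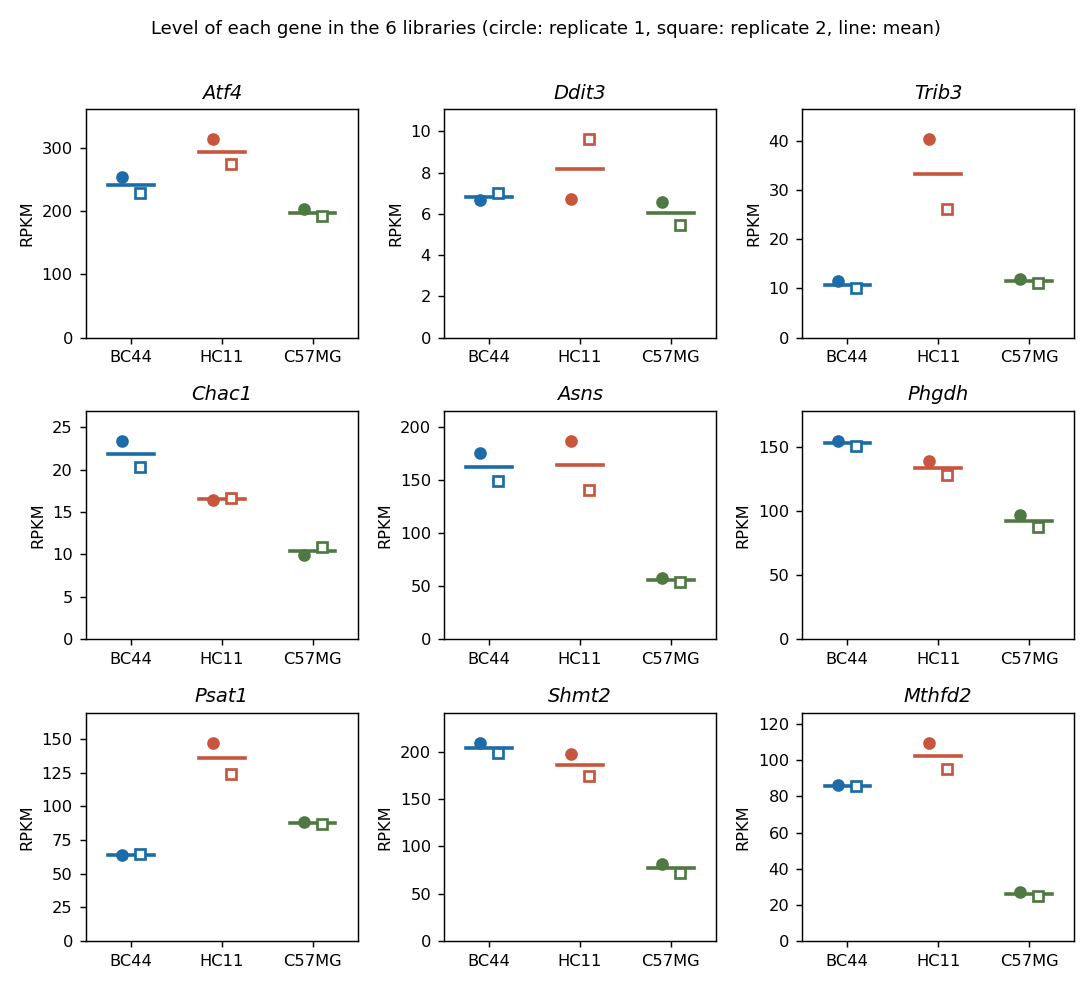
RPKM (vertical axes, from 0) of each of the 9 genes in the 6 libraries, by line (horizontal axes), with circles for replicate 1, squares for replicate 2 and a bar at the mean of each line. C57MG is the lowest line for Asns, Shmt2 and Mthfd2 by a wide margin, while HC11 is the highest for Trib3 and Psat1. Ddit3 runs from 5.45 to 9.62 RPKM, with its highest value in HC11 replicate 2.

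Values were compared as log2(RPKM + 1) with limma, a linear model fitted to all 10759 genes that reached 1 RPKM in at least 2 libraries, with Benjamini-Hochberg adjustment over all of them and a threshold of 0.05. All 9 genes passed that filter. Between HC11 and C57MG, 8 of the 9 genes passed and all 8 were higher in HC11, where 70.5% of all tested genes passed, 37.4% as higher in HC11 and 33.2% as higher in C57MG. Between BC44 and C57MG 7 of 9 passed, 6 higher in BC44 and 1, Psat1, higher in C57MG. There 71.7% of all tested genes passed, 37.5% as higher in BC44 and 34.1% as higher in C57MG. Between BC44 and HC11 4 of 9 passed, against 47.7% of all tested genes (24.7% higher in BC44 and 23.0% higher in HC11), with Chac1 higher in BC44 and Atf4, Trib3 and Psat1 higher in HC11. The share of the 9 genes that passed in either direction was thus near the background in both comparisons of BC44, with HC11 and with C57MG. The libraries of the lines did not overlap for 9 of the 9 genes between HC11 and C57MG (86.2% of all tested genes), for 8 between BC44 and C57MG (87.9%) and for 7 between BC44 and HC11 (73.0%). These counts were also near the shares of all tested genes. The median log2 change of the 9 genes was 0.62 for HC11 minus C57MG, 0.73 for BC44 minus C57MG and -0.21 for BC44 minus HC11. Over all tested genes it was 0.03, 0.04 and 0.02. The comparisons share libraries pairwise, so they are not independent of each other. In bulk RNA a smaller share of cells expressing a gene and less of its RNA per cell cannot be told apart.

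**Figure D2:**
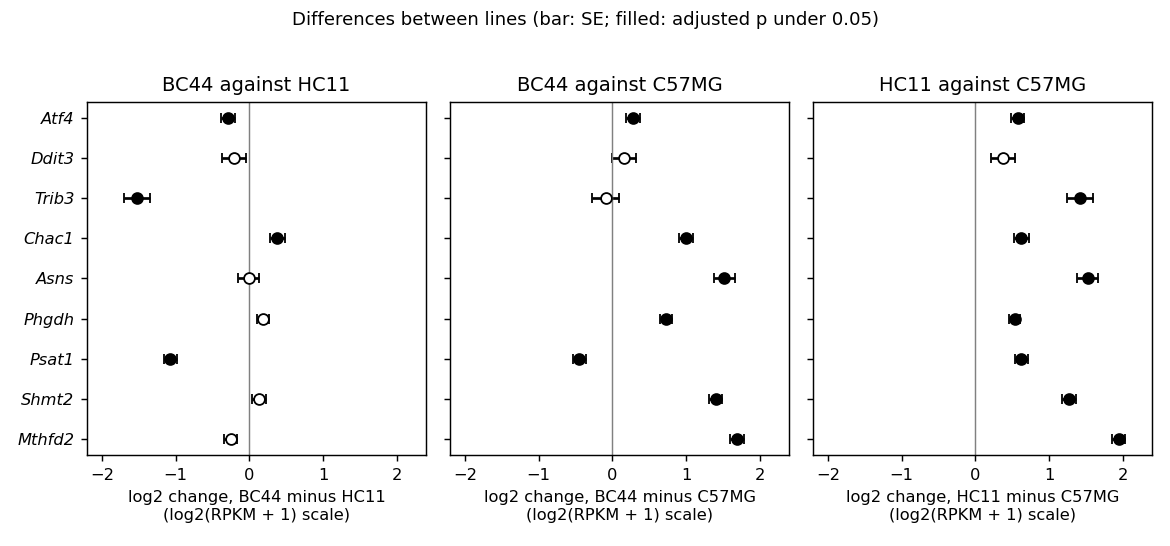
Log2 change on the log2(RPKM + 1) scale (horizontal axes) of the 9 genes (rows) in the 3 comparisons of lines, with bars for the standard error and filled points where the limma adjusted p was under 0.05. Against C57MG the points lie to the right of 0, except Psat1 and Trib3 in BC44, and between BC44 and HC11 only Trib3 and Psat1 lie more than 1 from 0.

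The stress-response regulators had unlike patterns. Atf4, the transcription factor at the centre of the response, was at 253 and 228 RPKM in BC44 replicates 1 and 2, 313 and 274 in HC11, and 202 and 192 in C57MG. The lines did not overlap, and the order was HC11, BC44, C57MG. HC11 exceeded C57MG by 0.57 on the log2 scale (SE 0.09, limma adjusted p = 0.0011), a 1.49-fold ratio of mean RPKM. The steps on either side of BC44 were smaller: BC44 minus HC11 was -0.29 (SE 0.09, limma adjusted p = 0.0401) and BC44 minus C57MG was 0.28 (SE 0.09, 0.0285). The calls of these steps depended on single libraries. The difference from HC11 was -0.15 after quantile normalization (limma adjusted p = 0.209), and it lost its call when BC44 replicate 1, BC44 replicate 2, HC11 replicate 1, C57MG replicate 1 or C57MG replicate 2 was left out, with values of -0.36 to -0.19 and limma adjusted p from 0.0595 to 0.205. The difference between BC44 and C57MG stayed at 0.21 to 0.36 under all alternatives run, and lost its call after quantile normalization (0.23, limma adjusted p = 0.0581) and without BC44 replicate 1 (0.21, 0.162), C57MG replicate 1 (0.32, 0.0731) or C57MG replicate 2 (0.24, 0.152).

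Ddit3, which encodes CHOP, a partner of ATF4 that is linked to cell death under lasting stress, was at 6.67 and 6.99 RPKM in BC44, at 6.70 and 9.62 in HC11 and at 6.59 and 5.45 in C57MG. The range of HC11 enclosed the higher BC44 library, while the C57MG libraries lay just under those of BC44. No comparison passed, with log2 changes of -0.21 for BC44 minus HC11 (SE 0.16, limma adjusted p = 0.34), 0.16 for BC44 minus C57MG (SE 0.16, 0.406) and 0.37 for HC11 minus C57MG (SE 0.16, 0.0794). Replicate 2 of HC11 was the highest of the 6 libraries, and the values of HC11 depended on which of its libraries was kept. Without HC11 replicate 2, HC11 minus C57MG was 0.14 (limma adjusted p = 0.41) and BC44 minus HC11 was 0.02 (0.901). Without HC11 replicate 1 they were 0.60 (limma adjusted p = 0.0111) and -0.44 (0.0477). Ddit3 was thus the gene of the 9 for which these libraries resolved no difference.

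Trib3, a pseudokinase that ATF4 and CHOP induce and that dampens their activity, was set apart in HC11. It was at 40.3 and 26.2 RPKM in HC11, at 11.4 and 9.98 in BC44 and at 11.8 and 11.1 in C57MG. Both HC11 libraries were above all others, although they differed from each other 1.54-fold, while BC44 and C57MG overlapped. HC11 exceeded BC44 3.10-fold in mean RPKM (BC44 minus HC11 -1.52 on the log2 scale, SE 0.18, limma adjusted p = 4.874e-04) and C57MG 2.89-fold (1.42, SE 0.18, 2.917e-04). BC44 minus C57MG was -0.09 (SE 0.18, limma adjusted p = 0.662).

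Chac1, an enzyme that breaks down glutathione and is induced through ATF4, had the order BC44, HC11, C57MG. It was at 23.4 and 20.3 RPKM in BC44, at 16.4 and 16.7 in HC11 and at 9.90 and 10.9 in C57MG, with no overlap between lines. BC44 exceeded C57MG 2.10-fold in mean RPKM (1.00 on the log2 scale, SE 0.10, limma adjusted p = 6.705e-05), and HC11 exceeded C57MG 1.59-fold (0.62, SE 0.10, 9.710e-04). The step between BC44 and HC11 was 0.38 (SE 0.10, limma adjusted p = 0.0181). That step was 0.28 without BC44 replicate 1 (limma adjusted p = 0.106). It kept its size without HC11 replicate 1 (0.37, 0.0627) or HC11 replicate 2 (0.39, 0.0577), and lost its call in each case. Trib3 and Chac1, both known as ATF4 targets, therefore had their highest level in different lines.

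Asns, the asparagine synthetase that makes asparagine from aspartate and glutamine, was low in C57MG. It was at 175 and 149 RPKM in BC44, at 187 and 141 in HC11 and at 57.2 and 54.2 in C57MG. All C57MG values were under all others, and the HC11 libraries, 1.33-fold apart, enclosed those of BC44. BC44 exceeded C57MG 2.91-fold in mean RPKM (1.52 on the log2 scale, SE 0.14, limma adjusted p = 4.299e-05) and HC11 exceeded it 2.94-fold (1.52, SE 0.14, 4.873e-05). BC44 and HC11 differed by -0.01 (SE 0.14, limma adjusted p = 0.978), less than the spread between replicates, and the sign of that difference turned under quantile normalization and without single libraries. The lowest Asns transcript level was thus in C57MG, the line grown in DMEM, whose basal formula lacks asparagine. Line and medium cannot be told apart here, and a part of the medium in this level was not tested.

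ATF4 is known to bind a composite element that joins a C/EBP and an ATF half-site. The letters TGATGNAA, searched on both strands, were found in the RefSeq promoter windows (300 bases around the annotated start, most of them before it, build GRCm38.p6) of 3 of the 9 genes, Asns, Trib3 and Chac1. All 9 genes had a window, and Psat1 had more than 1. The letters occurred in 3.97% of all 32851 windows of the table, and in windows of 2.62% of the listed genes with a window. They are not particular to these 3 genes. In the pathway lists described below, 7 of 15 other ATF4 targets and partner factors with a window had them. So did 5 of 13 aminoacyl-tRNA synthetases, 2 of 7 amino acid transporters and 1 of 13 other serine, glycine, folate and proline enzymes. Of 8 eIF2α kinases and phosphatase subunits and 18 chaperone list genes, 0 had them. The matches are shown with the surrounding bases because they are the sequence that these 3 genes share, 5′ to 3′ on the strand of the gene, with the match in capitals. In Trib3 and Chac1 the match is on the opposite strand, so it reads as the reverse complement here. The Asns stretch is chr6:7693210-7693268 (minus strand), that of Trib3 is chr2:152344029-152344056 (minus strand) and that of Chac1 is chr2:119351013-119351092 (plus strand).
Asns: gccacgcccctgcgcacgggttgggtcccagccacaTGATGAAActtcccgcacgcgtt
Trib3: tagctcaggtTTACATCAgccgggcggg
Chac1: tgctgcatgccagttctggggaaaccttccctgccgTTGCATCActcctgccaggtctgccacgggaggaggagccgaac
Counted from the annotated start, the matches lie at -23 to -16 in Asns, 15 to 22 in Trib3 and -193 to -186 in Chac1. These genes with the letters differed in which line was highest: HC11 for Trib3, BC44 for Chac1, and no single line for Asns, where BC44 and HC11 overlapped. For the other 6 genes the search says only that the letters are not in these windows.

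The serine synthesis genes did not share a pattern. Phgdh, the first enzyme of the route from the glycolytic intermediate 3-phosphoglycerate, was at 155 and 151 RPKM in BC44, at 139 and 129 in HC11 and at 96.9 and 87.5 in C57MG. The order was BC44, HC11, C57MG, with no overlap. BC44 exceeded C57MG 1.66-fold in mean RPKM (0.73 on the log2 scale, SE 0.08, limma adjusted p = 1.236e-04) and HC11 exceeded it 1.45-fold (0.53, SE 0.08, 7.377e-04). BC44 minus HC11 was 0.19 (SE 0.08) and did not pass (limma adjusted p = 0.0895).

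Psat1, the aminotransferase of the following step, had the order HC11, C57MG, BC44. It was at 148 and 124 RPKM in HC11, at 88.4 and 86.8 in C57MG and at 63.6 and 64.3 in BC44, with no overlap. HC11 exceeded BC44 2.12-fold in mean RPKM (BC44 minus HC11 -1.07 on the log2 scale, SE 0.09, limma adjusted p = 9.682e-05) and C57MG 1.55-fold (0.62, SE 0.09, 6.351e-04). C57MG exceeded BC44 1.37-fold (BC44 minus C57MG -0.45, SE 0.09, limma adjusted p = 0.00338). BC44 thus had the highest mean level of Phgdh and the lowest of Psat1. Between BC44 and C57MG these 2 consecutive enzymes passed in opposite directions, while between HC11 and C57MG both passed as higher in HC11.

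Psph, the phosphatase that completes the route, is not one of the 9 genes but belongs to the pathway. It was at 15.9 and 14.5 RPKM in BC44, at 19.2 and 14.5 in HC11 and at 4.59 and 4.38 in C57MG. The 2 lines grown in RPMI overlapped, and C57MG was lower by 1.56 than BC44 (SE 0.14, limma adjusted p = 2.983e-05) and by 1.69 than HC11 (SE 0.14, 2.277e-05) on the log2 scale. In C57MG the route therefore combined low Psph and Phgdh with a Psat1 level above that of BC44. Slc1a4, a transporter of serine, alanine and other neutral amino acids, was highest in the same line, at 41.9 and 37.1 RPKM in C57MG against 19.1 and 17.2 in BC44 and 10.0 and 7.64 in HC11. HC11 minus C57MG was -2.05 for Slc1a4 (SE 0.13, limma adjusted p = 7.101e-06).

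Both mitochondrial folate enzymes were low in C57MG. Shmt2, which splits serine into glycine and a one-carbon unit, was at 209.5 and 198 RPKM in BC44, at 198 and 174 in HC11 and at 81.1 and 72.2 in C57MG. C57MG was far under the other lines, whose libraries nearly met. BC44 exceeded C57MG 2.66-fold in mean RPKM (1.40 on the log2 scale, SE 0.09, limma adjusted p = 7.630e-06) and HC11 exceeded it 2.43-fold (1.27, SE 0.09, 1.524e-05). BC44 minus HC11 was 0.13 (SE 0.09, limma adjusted p = 0.282).

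Mthfd2, which oxidises the folate-bound one-carbon unit in mitochondria, was at 86.1 and 85.7 RPKM in BC44, at 109.9 and 95.5 in HC11 and at 27.0 and 24.8 in C57MG. HC11 exceeded C57MG 3.96-fold in mean RPKM (1.94 on the log2 scale, SE 0.09, limma adjusted p = 1.372e-06), the largest difference of any of the 9 genes. BC44 exceeded C57MG 3.32-fold (1.69, SE 0.09, 2.375e-06). BC44 minus HC11 was -0.25 (SE 0.09, limma adjusted p = 0.0554), with no overlap of libraries, and passed without HC11 replicate 2 (-0.35, 0.0247) and after median-ratio scaling (-0.26, 0.0477). Shmt2 and Mthfd2, which act in sequence, thus had C57MG as their lowest line by more than 2-fold in mean RPKM.

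The paralogues and neighbours of these enzymes, are named here for their place in the pathway. Shmt1, the cytosolic counterpart of Shmt2, was at 14.9 ± 0.984 RPKM in BC44, at 23.9 ± 1.42 in HC11 and at 9.95 ± 1.03 in C57MG (SD, n = 2 each). HC11 was the highest line for Shmt1, and it differed from BC44 (BC44 minus HC11 -0.65, SE 0.10, limma adjusted p = 0.00193). Mthfd2l, a mitochondrial paralogue of Mthfd2, was at 12.6 ± 1.92, 16.3 ± 0.684 and 6.77 ± 0.053 RPKM across BC44, HC11 and C57MG, again lowest in C57MG. For Mthfd1l, which acts after Mthfd2 in the mitochondrion, the levels were 28.4 ± 1.16, 34.3 ± 1.22 and 31.6 ± 3.85 RPKM and no comparison passed (limma adjusted p from 0.0619 to 0.306). For this following enzyme no difference from C57MG was resolved.

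The transsulfuration enzymes, which use serine to make cysteine, differed more sharply. Cbs, which joins serine to homocysteine, was at 8.65 and 7.27 RPKM in BC44, at 0.016 and 0 in HC11 and at 0.199 and 0.369 in C57MG. The HC11 values stand for an estimated 2 and 0 reads, so only BC44 had more than traces of Cbs. Cth, which releases cysteine in the following step and is a known ATF4 target, was at 17.4 and 17.0 RPKM in BC44, at 25.6 and 21.5 in HC11 and at 0.049 and 0 in C57MG, where an estimated 2 and 0 reads were behind the values. Both genes passed against the lines in which they were nearly absent, with limma adjusted p of 2.264e-06 for Cbs in BC44 against HC11, 2.706e-07 for Cth in BC44 against C57MG and 1.897e-07 for Cth in HC11 against C57MG. Their log2 changes on the log2(RPKM + 1) scale were 3.15, 4.15 and 4.58, and with a pseudocount of 0.1 they were 6.22, 7.15 and 7.59.

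**Figure D3:**
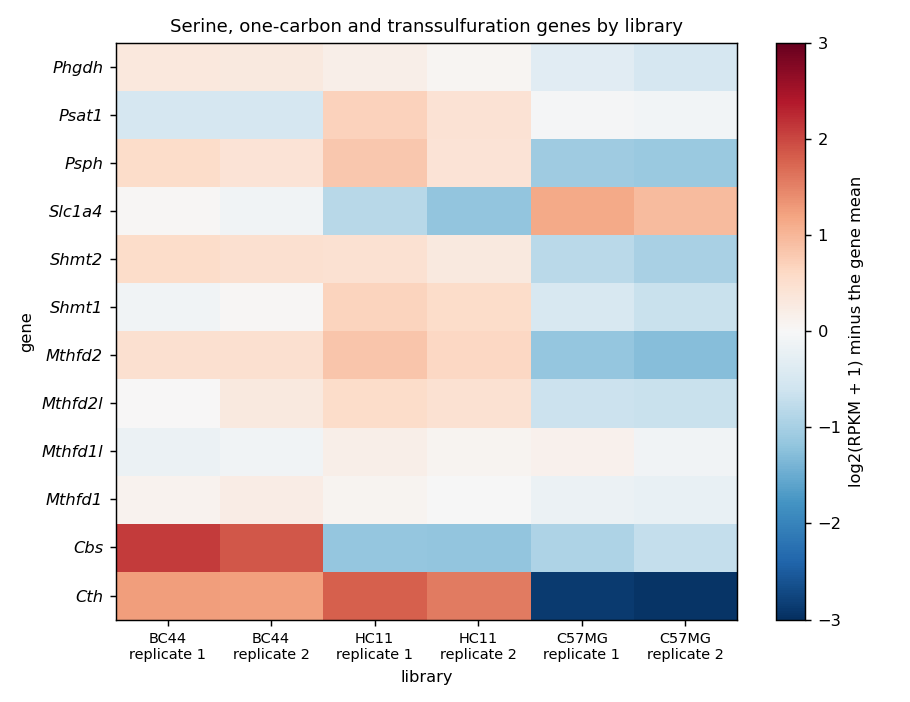
Colour shows log2(RPKM + 1) minus the mean of each gene over the 6 libraries (colour bar) for serine synthesis, serine transport, one-carbon and transsulfuration genes (rows) in each library (columns). Psat1 and Slc1a4 are higher in C57MG than in BC44, Phgdh, Psph, Shmt2 and Mthfd2 are lower there, and Cbs is high in BC44 and Cth in BC44 and HC11.

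The other pathway genes are read against the shares of all tested genes given above: 47.7% between BC44 and HC11 (24.7% higher in BC44, 23.0% in HC11), 71.7% between BC44 and C57MG (37.5% and 34.1%) and 70.5% between HC11 and C57MG (37.4% and 33.2%). Upstream of ATF4 stand the eIF2α kinases and phosphatase subunits, and 11 of the 12 genes in that list were tested. In BC44 against HC11 1 was higher in BC44 and 1 in HC11. Against C57MG 3 were higher in BC44 and 4 in C57MG, and in the other comparison 3 were higher in HC11 and 5 in C57MG. The share of the list that passed was 18.2%, 63.6% and 72.7% in these comparisons, near the share of all genes in both comparisons with C57MG. Their median changes were 0.05, 0.06 and 0.01 in the order BC44 minus HC11, BC44 minus C57MG and HC11 minus C57MG. Impact, an inhibitor of the amino-acid-sensing kinase GCN2, stood out in C57MG at 32.7 ± 3.23 RPKM, against 3.95 ± 0.300 in BC44 and 2.88 ± 0.762 in HC11 (SD, n = 2 each). The log2 changes of Impact were -2.76 for BC44 minus C57MG (SE 0.15, limma adjusted p = 2.677e-06) and -3.13 for HC11 minus C57MG (SE 0.15, 1.682e-06). The GCN2 gene itself, Eif2ak4, and the gene of the endoplasmic reticulum kinase PERK, Eif2ak3, were named for their role. Eif2ak4 was at 4.58 ± 0.127, 3.96 ± 0.0559 and 5.35 ± 0.00636 RPKM across BC44, HC11 and C57MG and passed between HC11 and C57MG (-0.36, SE 0.10, limma adjusted p = 0.0119). Eif2ak3 was at 6.34 ± 0.274, 6.41 ± 0.243 and 5.41 ± 0.303 RPKM and passed in no comparison (limma adjusted p from 0.0962 to 0.926).

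Eif2ak2, the kinase PKR, which senses double-stranded RNA, was lower in BC44 (8.74 ± 0.221 RPKM) than in HC11 (13.7 ± 1.80 RPKM). It was highest in C57MG, at 22.6 ± 0.39 RPKM (SD, n = 2 each). The log2 changes were -0.59 for BC44 minus HC11 (SE 0.11, limma adjusted p = 0.00319) and -1.28 for BC44 minus C57MG (SE 0.11, 2.265e-05). For HC11 minus C57MG the change was -0.69 (SE 0.11, limma adjusted p = 7.160e-04). Ppp1cb, a catalytic subunit of the phosphatase PP1, was at 93.0 ± 5.28 RPKM in BC44, at 58.7 ± 3.96 in HC11 and at 28.4 ± 0.194 in C57MG. Ppp1r15a encodes GADD34, an ATF4-induced subunit that directs PP1 to eIF2α. It was at 5.80 and 6.63 RPKM in BC44, at 5.83 and 10.6 in HC11 and at 3.30 and 2.98 in C57MG. HC11 minus C57MG was 1.11 for Ppp1r15a (SE 0.23, limma adjusted p = 0.00329), and 0.72 without HC11 replicate 2. As for Ddit3, the high value was that of HC11 replicate 2.

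Of 18 other ATF4 targets and partner factors 17 were tested. Between BC44 and C57MG 9 were higher in BC44 and 6 in C57MG, and between HC11 and C57MG 9 were higher in HC11 and 5 in C57MG. In BC44 against HC11 6 were higher in BC44 and 5 in HC11. The medians were 0.84, 0.56 and 0.04 in the same order. Of the list 88.2%, 82.4% and 64.7% passed, against 71.7%, 70.5% and 47.7% of all genes. Genes passed in both directions in each comparison, and over all genes 34.1% and 33.2% were higher in C57MG than in BC44 and HC11. Those of the list higher in C57MG than in BC44 were Atf5, Cebpb, Sesn2, Pck2, Jdp2 and Atf2. Higher in C57MG than in HC11 were Atf5, Cebpg, Nupr1, Jdp2 and Atf2. Atf5 was at 88.2 ± 3.95 RPKM in C57MG, against 43.5 ± 3.32 in BC44 and 42.4 ± 3.59 in HC11 (SD, n = 2 each). Vldlr, a lipoprotein receptor, and Atf3, a stress-induced transcription factor, were nearly absent from C57MG. Vldlr was at 10.5 and 8.98 RPKM in BC44, at 7.78 and 5.31 in HC11 and at 0.027 and 0 in C57MG, an estimated 5 and 0 reads. Atf3 was at 5.65 and 5.98 RPKM in BC44, at 5.43 and 11.0 in HC11 and at 0.028 and 0 in C57MG, an estimated 1 and 0 reads. Both passed against C57MG, with limma adjusted p of 1.446e-06 for Vldlr in BC44 and 2.583e-05 for Atf3 in HC11. Cebpb, a partner of ATF4 at the composite element, was highest in HC11, at 261 ± 32.3 RPKM. It was at 176.0 ± 7.35 RPKM in C57MG and at 78.4 ± 8.84 in BC44 (SD, n = 2 each). Its change was -1.72 for BC44 minus HC11 (SE 0.11, limma adjusted p = 2.441e-05) and -1.16 for BC44 minus C57MG (SE 0.11, 5.533e-05). Nupr1, a small stress-induced chromatin protein, went the other way, at 18.4 ± 2.87 RPKM in BC44 and 5.32 ± 0.00636 in HC11 (1.61, SE 0.14, limma adjusted p = 1.108e-04).

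Of 12 amino acid transporter genes 10 were tested. Between BC44 and HC11 8 were higher in BC44 and 1 in HC11, where 24.7% and 23.0% of all tested genes were, and the median log2 change was 0.64 against 0.02 over all genes. Against C57MG 6 were higher in BC44 and 2 in C57MG (median 0.78), and 5 were higher in HC11 and 4 in C57MG (median 0.11). The shares over all genes there were 37.5% and 34.1%, and 37.4% and 33.2%. Slc7a11, the cystine transporter, was at 5.57 ± 0.239 RPKM in BC44, at 7.68 ± 0.0318 in HC11 and at 0.228 ± 0.0537 in C57MG (SD, n = 2 each), 24.4-fold and 33.7-fold under the other lines in mean RPKM. On the log2(RPKM + 1) scale these changes were 2.42 and 2.82, and with a pseudocount of 0.1 they were 4.12 and 4.58. Slc7a1, a transporter of arginine and lysine, was at 93.6 ± 7.71 RPKM in BC44 and 20.0 ± 2.11 in C57MG (2.17, SE 0.10, limma adjusted p = 1.047e-06). Slc38a1, a glutamine transporter, was at 4.65 and 4.10 RPKM in BC44 and 0.032 and 0.050 in HC11 (2.37, SE 0.10, limma adjusted p = 3.291e-06, and 4.99 with a pseudocount of 0.1).

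Cytosolic aminoacyl-tRNA synthetases charge tRNAs and include ATF4 targets. The list also holds the tRNA exporter gene Xpot, and 21 of its 22 genes were tested. Against C57MG 12 were higher in BC44 and 3 in C57MG (median 0.37), and 14 were higher in HC11 and 3 in C57MG (median 0.39). The share that passed in either direction, 71.4% and 81.0%, compares with 71.7% and 70.5% of all genes, of which 34.1% and 33.2% were higher in C57MG. In BC44 against HC11 3 passed in each direction, among them Xpot, higher in BC44 by 0.55 (SE 0.10, limma adjusted p = 0.00288). Gars, for glycine, was at 208.5 ± 5.79 RPKM in BC44, at 280.2 ± 17.5 in HC11 and at 92.3 ± 4.58 in C57MG (SD, n = 2 each), and Kars, for lysine, was at 229 ± 11.5, 219 ± 13.6 and 90.9 ± 5.25. Farsa, a subunit for phenylalanine, was at 34.8 ± 0.233 RPKM in BC44 and 12.5 ± 0.778 in C57MG. Gars, Kars and Farsa were lowest in C57MG, but they were named for their large changes, so this follows from the choice. The genes that passed as higher in C57MG were Tars, Dars and Vars, at 226.6, 74.7 and 49.9 RPKM there. They were at 150.1, 47.4 and 33.8 RPKM in BC44 and at 120.7, 48.9 and 36.1 in HC11.

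Among the other serine, glycine, folate and proline enzymes 17 of 21 were tested. Against C57MG 10 were higher in BC44 and 2 in C57MG (median 0.36), and 9 were higher in HC11 and 5 in C57MG (median 0.34). In either direction 70.6% and 82.4% of the list passed, against 71.7% and 70.5% of all genes. Between BC44 and HC11 4 passed in each direction (median -0.05). Gcsh, the carrier protein of glycine cleavage, was at 76.8 ± 7.97 RPKM in HC11 and 28.6 ± 3.05 in C57MG (1.40, SE 0.11, limma adjusted p = 2.280e-05). Pycr1, a proline synthesis enzyme, was at 9.19 ± 2.58 RPKM in BC44, at 3.56 ± 1.92 in HC11 and at 1.81 ± 0.0212 in C57MG (SD, n = 2 each). Its excess in BC44 over HC11 (1.21, SE 0.29, limma adjusted p = 0.0111) rested on wide replicates: it was 0.76 without HC11 replicate 2 and lost its call without BC44 replicate 1 (0.94, 0.0905).

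The chaperones and other unfolded protein response genes of the endoplasmic reticulum passed in both directions. All 21 were tested, and against C57MG 5 were higher in BC44 and 9 in C57MG (median -0.08), while 6 were higher in HC11 and 11 in C57MG (median -0.26). Of the list 66.7% and 81.0% passed, against 71.7% and 70.5% of all genes. For BC44 against HC11 2 were higher in BC44 and 4 in HC11 (median -0.06). Creld2, an endoplasmic reticulum stress protein, was at 34.6 ± 4.29 RPKM in BC44, at 39.1 ± 4.67 in HC11 and at 85.7 ± 5.10 in C57MG (SD, n = 2 each). Xbp1, the transcription factor of the IRE1 arm, was at 15.2 ± 2.18 RPKM in BC44 and 31.8 ± 1.68 in C57MG (-1.03, SE 0.11, limma adjusted p = 9.423e-05). Dnajc3, a co-chaperone that inhibits eIF2α kinases, was at 17.4 ± 1.49 RPKM in HC11 and 32.2 ± 0.157 in C57MG. Between BC44 and HC11 the named genes were Pdia4, a disulfide isomerase (-0.63, SE 0.09, limma adjusted p = 0.0012), and Atf6, the sensor of another arm (-0.55, SE 0.11, 0.00426), both higher in HC11. Calr, Hyou1 and Dnajb9, chosen after their values were seen, were lower in C57MG than in BC44. Calr, an abundant chaperone, was at 572 ± 9.05 RPKM in BC44, at 480.5 ± 62.3 in HC11 and at 289 ± 17.0 in C57MG (SD, n = 2 each). Its change was 0.99 for BC44 minus C57MG (SE 0.10, limma adjusted p = 8.092e-05). Hyou1, another chaperone, and Dnajb9, a co-chaperone, differed in the same direction, by 0.81 (SE 0.11, limma adjusted p = 3.405e-04) and 0.90 (SE 0.14, 8.736e-04). By mean RPKM C57MG was the lowest line for 7 of the 9 ATF4 stress and serine synthesis genes, all but Psat1 and Trib3. Among these 7, Ddit3 passed in no comparison. How often C57MG was the lowest line over all tested genes was not counted.

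**Figure D4:**
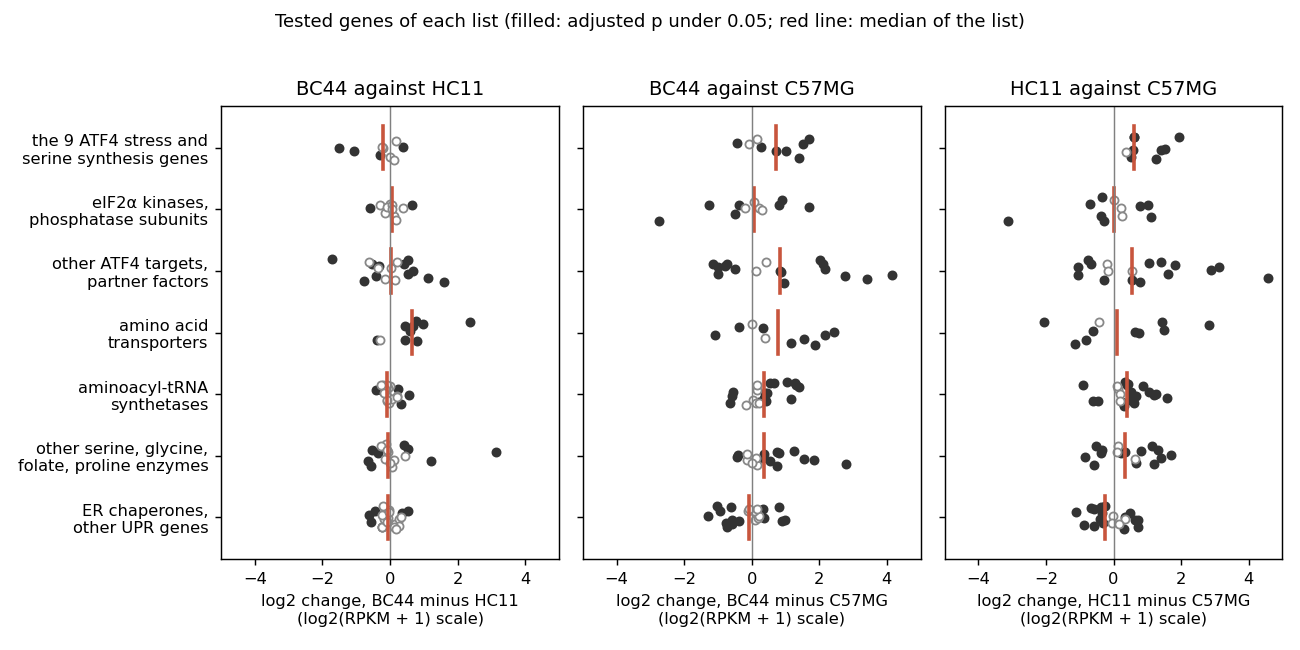
Log2 change on the log2(RPKM + 1) scale (horizontal axes) of each tested gene (points, filled where the limma adjusted p was under 0.05) in the 9 genes and the 6 pathway lists (rows), with the median as a red line, for the 3 comparisons. The medians of the 9 genes are 0.73 and 0.62 against C57MG, while those of the chaperone list are -0.08 and -0.26.

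Replicate libraries of a line differed in a shared way for many of the 9 genes. Atf4, Trib3, Asns, Phgdh, Shmt2 and Mthfd2, 6 of 9, were higher in the library numbered 1 in all 3 lines, against 14.9% of the tested genes. The margin was small in places, as for Mthfd2 in BC44, and reached 1.54-fold for Trib3 and 1.33-fold for Asns in HC11. Ddit3 went the other way in HC11, where replicate 1 was at 0.70 of replicate 2. The estimated depth was higher in replicate 1 of HC11 and C57MG and lower in replicate 1 of BC44. What the numbers stand for is not given in the sources used here, and the cause was not tested.

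The genes most like Atf4 and Phgdh were not among the other members of the set. Likeness was measured over the 6 libraries as the root mean square difference of log2(RPKM + 1) after centring each gene on its mean. For Atf4 the nearest of 10758 genes were Ino80b, a chromatin remodelling subunit (0.030), Rpl36, a ribosomal protein (0.031), and Slc1a5, a glutamine transporter on the transporter list (0.041). The nearest of the 9 was Ddit3 at 0.220, at rank 1666. For Phgdh the nearest were Mcm7, a replication helicase subunit (0.034), Clec16a (0.036) and Sun1, a nuclear envelope protein (0.036), and the nearest of the 9 was Chac1 at 0.15, at rank 678. The 6 libraries come from 3 lines, so many genes can lie this close. With so few members among the genes ranked, other genes were likely to be nearest. The measure also counts the size of a difference, so a member with the same order of lines but larger differences ranks far away. The ranks therefore do not show whether the members vary with Atf4 or Phgdh.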

How the data were processed

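Libraries were directional and made from 1 µg of RNA after poly(A) selection, per the labels' protocols. The deposited table gives RPKM computed by the authors, with 1 value per gene and library. The genome build mm9 and the aligner STAR are named in the submitters' processing notes, with no version, and the read counter, annotation, gene lengths and strand setting are not given in the sources used here. Coordinates and sequences shown are RefSeq's for GRCm38.p6, matched by symbol.

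Samples were grouped by title. The test was limma 3.58.1 under R 4.3.3, with a mean-variance trend, applied to log2(RPKM + 1) of all 6 libraries, which share 1 estimate of the spread. The 658 genes not at 1 RPKM in at least 2 libraries were left out. P-values are two-sided and adjusted within each comparison. Fold changes on this scale understate the change of low genes. The model was tested on simulated data. Read numbers were estimated from the steps of low RPKM values times exonic length (GENCODE M21): 74.9% to 80.5% of the 245 to 391 low values per library lay within 0.15 of a whole read, against 30.0% by chance. They cover counting error only. Other steps used Python 3.11.15, pandas 2.3.3 and matplotlib 3.10.9.

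The 9 genes and the lists were chosen with earlier results of these data known. The naming rule took all 9 genes, and from each of 6 pathway lists the 2 genes per comparison with the largest change among those that passed without overlap of libraries. Shmt1, Mthfd2l, Mthfd1l, Eif2ak3 and Eif2ak4 were named for their role and Calr, Hyou1 and Dnajb9 as counterexamples, with values known. The ATF4 targets, partner factors and aminoacyl-tRNA synthetases given as higher in C57MG were also named with values known. The alternatives were another pseudocount, other filters and scalings, fitting only the libraries compared, the replicate number as a block, and leaving out each library.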

Additional observations from a re-analysis of the deposited data

How the results depend on the processing

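Of 351 recomputed differences of the 9 genes, 328 kept their direction and their side of the threshold, 14 lost a call, 5 gained one and 4 changed sign. The sign changes were all between BC44 and HC11 and none of them was a passing difference: Ddit3 without HC11 replicate 2 (0.02), and Asns under quantile normalization (0.01), without BC44 replicate 2 (0.11) and without HC11 replicate 1 (0.20). Leaving out 1 library at a time gave -0.44 to 0.02 for Ddit3 and -0.21 to 0.20 for Asns there. Of 460 recomputed differences of genes named from the lists, 459 did so and 1 lost its call. Leaving out 1 library gave 2 to 4 of the 9 genes passing between BC44 and HC11 (4 with all libraries, 2 without BC44 replicate 1), 6 to 7 between BC44 and C57MG (7) and 8 to 9 between HC11 and C57MG (8). Counts over all genes stayed within 1.5 times their value under every alternative run. A replicate block (the number in the titles as a term) gave 5, 7 and 8 of the 9 genes passing in the same order, Mthfd2 between BC44 and HC11 being added (limma adjusted p = 0.0389), and 5350, 7875 and 7721 genes passed in all, against 5129, 7713 and 7590 without it. Same-numbered libraries' deviations correlated across genes at 0.354 between BC44 and HC11, -0.039 between BC44 and C57MG and 0.038 between HC11 and C57MG. The deviations thus went partly together by number in BC44 and HC11 but not with C57MG. The main fit did not pair the libraries. Counting error was largest for Ddit3, at up to 8.35%, in C57MG replicate 2. Its HC11 values of 6.70 and 9.62 RPKM stood for an estimated 213 and 236 reads. The part of counting error in their distance was not tested. Having 2 libraries a line limits every comparison.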
